A study of Mus musculus with 4 samples.

Results

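Cathepsins and legumain are the proteases that digest protein inside lysosomes, and 10 of their genes (Ctsa, Ctsb, Ctsc, Ctsd, Ctsh, Ctsk, Ctsl, Ctss, Ctsz and Lgmn) were followed here across bulk RNA sequencing libraries of microglia, the resident macrophages of the brain. The genes were chosen by symbol, each had 1 row in each of the 4 deposited tables, and they were 10 of the 21981 genes listed there. Microglia were taken from mouse cerebral cortex at embryonic day 16. In the cKO libraries (cKO 2 and cKO 5) Bach1 was conditionally deleted with a driver that the series text calls Cx3. The control libraries (control 1 and control 6) were Bach1 fl/fl. All were untreated. The series text mentions triplicates; no library other than these 4 was analysed here. Bach1 encodes a heme-binding transcriptional repressor, and the comparison asks which microglial genes differ when it is deleted. Whether each library had its own animal or pooled embryos is not in the labels, so p-values measure only the spread between these samples. The driver's cell specificity is not given beyond its name.

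Cathepsins are made as inactive proenzymes, carried to the lysosome by mannose 6-phosphate receptors and other sorting routes, and activated by cleavage at acid pH. Microglia, which engulf dying cells and synaptic material, use them to break down what they take up, and macrophages release some of them. Secreted and cytosolic cystatins bind and inhibit the cysteine cathepsins. The deposited annotation puts Ctsb, Ctsc, Ctsh, Ctsk, Ctsl, Ctss and Ctsz in the papain family of cysteine proteases, Lgmn in peptidase family C13, Ctsd among the aspartyl proteases and Ctsa among the serine carboxypeptidases.

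The libraries held between 17233115 and 19305078 reads, and 3 reads correspond to between 0.155 and 0.174 CPM (reads of a gene per 1000000 reads of the library). Intervals and floors given here cover counting error only. Bach1 itself had 30.0 and 35.4 CPM in cKO 2 and cKO 5, against 45.8 and 21.6 CPM in control 1 and control 6. The tables give 1 count for the whole gene and none by exon, so this value was not used as a check of the genotype, and directions rest on the labels. The 24 microglial markers all had reads in every library, but their summed level was 11833 CPM in cKO 2 and 45718 CPM in cKO 5, against 32102.5 CPM in control 1 and 51177.5 CPM in control 6. The 18 excitatory neuron markers summed to 5318 and 983 CPM in the cKO libraries and 1882 and 1014 CPM in the controls. Of these, Mef2c was lowest in cKO 2, at 271 and 584 CPM in cKO and 442 and 565 CPM in control. Mef2c held most of the sum in cKO 5 and in control 6. Library cKO 2 thus stood apart, with the lowest microglial and highest neuronal signal. The members' median fold change and the counts over gene lists below are also given without it. Fold changes of single genes rest on all 4 libraries unless stated. In bulk RNA, fewer cells of a type and less RNA per cell cannot be told apart.

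The 10 genes had a large share of all reads in every library, and that share differed more within each genotype than between genotypes. They took 1.04% of the reads of cKO 2 (95% Wilson interval 1.03% to 1.04%) and 3.41% of those of cKO 5 (3.40% to 3.41%), against 2.28% in control 1 (2.27% to 2.29%) and 3.53% in control 6 (3.52% to 3.54%). The cKO values lay on both sides of control 1 and below control 6. The summed microglial markers given above rank the libraries in the same order. Markers of border macrophages (10 of 11 tested, Cd163 with no reads in control 6) summed to 404 and 1819 CPM in the cKO libraries and to 944 and 1206 CPM in the controls. The part of these cells in the members' values was not tested. The means were 2.22 ± 1.68% in cKO and 2.90 ± 0.881% in control (SD, n = 2 each), a difference of −0.684 percentage points (exact two-sided permutation p = 0.667, where 2 against 2 libraries cannot go below 0.333). Without cKO 2 the difference was 0.501 points.

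**Figure D1:**
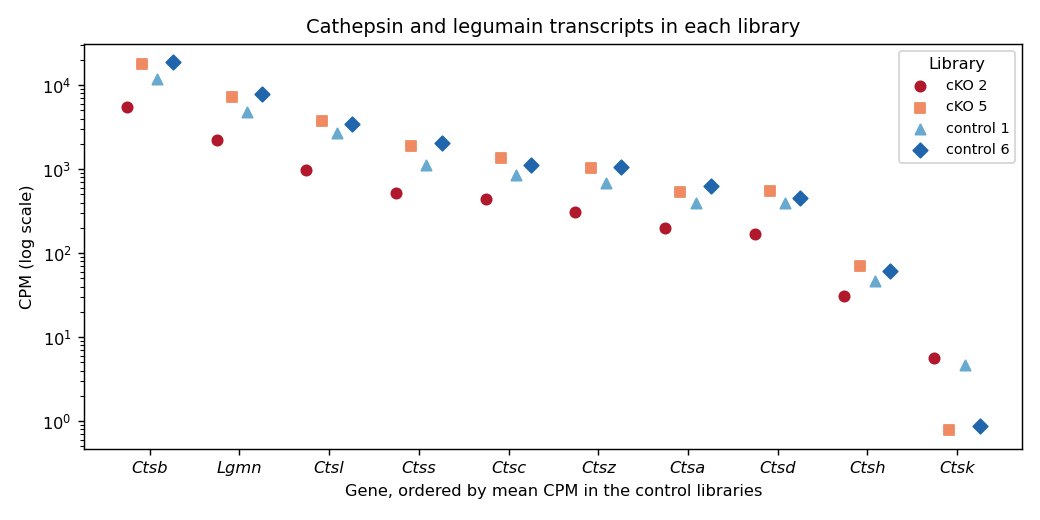
CPM of each gene (vertical axis, log scale) in each of the 4 libraries (points, cKO 2, cKO 5, control 1 and control 6 from left to right within a gene), with genes ordered along the horizontal axis by their mean in the controls. Library cKO 2 was lowest for the 9 genes other than Ctsk, while cKO 2 and control 1 were highest for Ctsk.

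The papain-family endopeptidases, which cut within protein chains, included the most abundant member by reads. Ctsb (ENSMUSG00000021939, chromosome 14, 63122462 to 63145919, plus strand, in GRCm38 coordinates), which encodes a protease that also trims dipeptides from C-terminal ends, stood at 5484 CPM in cKO 2 and at 17812 CPM in cKO 5, against 11890.3 CPM in control 1 and 18628 CPM in control 6. The cKO values fell below and between the control values, so the groups overlapped. The log2 fold change of cKO over control was −0.40 ± 1.12 (SE; adjusted p = 0.9997, edgeR's quasi-likelihood test). Ctsl (ENSMUSG00000021477, chromosome 13, 64359337 to 64370890, minus strand), a broad lysosomal endopeptidase gene, had 972 and 3697 CPM in cKO 2 and cKO 5 and 2709 and 3475 CPM in control 1 and control 6. Here cKO 5 was the highest library and cKO 2 the lowest, and the log2 fold change was −0.40 ± 0.93. Ctss (ENSMUSG00000038642, chromosome 3, 95526786 to 95556403, plus strand) encodes the protease that degrades the invariant chain of MHC class II in antigen-presenting cells and keeps activity near neutral pH. It had 517 and 1864 CPM in the cKO libraries, against 1113 and 2023 CPM in the controls. Its values spanned 3.91-fold between the highest and lowest library, the widest range of the 9 genes other than Ctsk, with a log2 fold change of −0.41 ± 0.91.

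Ctsk was the exception among the endopeptidases. It encodes the collagen-degrading protease best known from osteoclasts, and lies directly upstream of Ctss on the same strand (ENSMUSG00000028111, chromosome 3, 95499256 to 95509362), 17423 bp apart with 0 annotated genes wholly between them. Ctsk had 5.60 CPM (97 reads, exact Poisson 95% interval 4.54 to 6.84 CPM) in cKO 2 and 0.777 CPM (15 reads, 0.435 to 1.28 CPM) in cKO 5. In the controls it had 4.69 CPM (82 reads, 3.73 to 5.83 CPM) in control 1 and 0.870 CPM (15 reads, 0.487 to 1.44 CPM) in control 6. It was thus high in 1 library of each genotype, with intervals that did not meet those of the low libraries, and the genotypes overlapped (log2 fold change 0.06 ± 1.28). Ctss, its neighbour, had its highest values in the 2 libraries where Ctsk was lowest. Markers of pericytes and fibroblasts (11 of 12 tested) were in sum, like Ctsk, higher in cKO 2 and control 1 than in the other libraries. Their summed levels were 3548 CPM in cKO 2 and 287 CPM in cKO 5, against 3941 CPM in control 1 and 760 CPM in control 6. Of these markers, the collagen gene Col1a1 had no reads in cKO 5 and the proteoglycan gene Dcn had none in control 6. Endothelial markers summed to 3165 and 406 CPM in the cKO libraries and 4035 and 718 CPM in the controls. Neural markers had this arrangement too. Radial glia markers (13 of 14 tested) summed to 1614 and 242 CPM in cKO and 763 and 269 CPM in control. Excitatory neuron markers summed to 5318 and 983 CPM in cKO and 1882 and 1014 CPM in control. Among them Mef2c, lowest in cKO 2 and next lowest in control 1, went the other way. The arrangement was thus not particular to any of these lists. The part of these cells in the Ctsk values was not tested.

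The exopeptidases of the papain family, which trim chain ends, were lowest in cKO 2 and next lowest in control 1, as Ctsb was. Ctsc (ENSMUSG00000030560, chromosome 7, 88278085 to 88310888, plus strand), the dipeptidyl peptidase that activates granule serine proteases of leukocytes, had 446 and 1361 CPM in cKO 2 and cKO 5, against 862 and 1118 CPM in control 1 and control 6. Both controls lay between the cKO values, and the log2 fold change was −0.14 ± 0.78. Ctsz (ENSMUSG00000016256, chromosome 2, 174427493 to 174439039, minus strand), a carboxypeptidase gene, had 308 and 1028 CPM in cKO and 680 and 1059 CPM in control (log2 fold change −0.39 ± 0.82). Ctsh (ENSMUSG00000032359, chromosome 9, 90054152 to 90076089, plus strand), an aminopeptidase gene, had 31.0 and 69.4 CPM in cKO and 47.0 and 61.6 CPM in control. Its range of 2.24-fold between libraries was the smallest of the 10, and its log2 fold change was −0.14 ± 0.60.

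The members of other protease classes were also lowest in cKO 2 and next lowest in control 1. Lgmn (ENSMUSG00000021190, chromosome 12, 102394084 to 102439813, minus strand) encodes legumain, the asparaginyl endopeptidase that cleaves after asparagine and helps convert cathepsins to their 2-chain forms. It had 2227 and 7145 CPM in cKO 2 and cKO 5, against 4731 and 7839 CPM in control 1 and control 6, a log2 fold change of −0.43 ± 0.98. Ctsd (ENSMUSG00000007891, chromosome 7, 142375911 to 142388038, minus strand), the main lysosomal aspartic protease gene, had 168 and 544 CPM in cKO and 393 and 451 CPM in control (log2 fold change −0.24 ± 0.75). Ctsa (ENSMUSG00000017760, chromosome 2, 164832873 to 164841032, plus strand), whose serine carboxypeptidase product also protects the lysosomal enzymes of the Glb1 and Neu1 genes, had 197 and 534 CPM in cKO and 390 and 625 CPM in control (log2 fold change −0.49 ± 0.73). In each of these genes cKO 2 was lowest, and cKO 5 lay above control 1.

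None of the 10 genes passed the threshold in the comparison of genotypes. All 10 passed the filter on low counts, and 9 had negative and 1 (Ctsk) a positive log2 fold change, with a median of −0.39 against 0.03 over the 15951 genes tested. The shift was not particular to the members, since all 24 microglial markers were negative, with a median of −0.48. By edgeR's quasi-likelihood test the adjusted p was 0.9997 for each of the 10. At an adjusted p under 0.05, 0% of all genes tested were called in either direction. At an unadjusted p under 0.05, 0 of the 10 were called, against 0.307% of all genes, and DESeq2, limma-voom and edgeR's exact test also called 0 of the 10 with or without adjustment. Every log2 fold change was smaller than its standard error. For 0 of the 10 did both cKO libraries lie on one side of both controls on the TMM-scaled CPM, while this held for 8.33% of all genes with cKO higher and 7.64% with cKO lower. A p that misses the threshold does not show that the levels were equal, and the standard errors ran from 0.60 to 1.28 on the log2 scale.

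The direction rested on which library was used. Without cKO 2, 9 of the 10 had positive fold changes and 1 (Ctsk) a negative one, with a median of 0.33, and 0 of the 10 had an unadjusted p under 0.05 (3.49% of all genes). Without cKO 5, 9 were negative and the median was −1.69, with values from −1.93 for Ctsl to 0.82 for Ctsk. The members did not stand alone in that fit. All 24 microglial markers were negative, with a median of −1.93. Of 28 other lysosomal hydrolase genes, 27 were negative, with a median of −1.37. The single cKO library is assumed there to vary like the controls. Leaving out control 1 gave a median of −0.67, and leaving out control 6 gave 0.07.

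The authors' deposited tables, each comparing 1 cKO library with 1 control library, give the members by pair, with calls as marked there. These 4 pairs share libraries, and a call compares those libraries and not the genotypes. In the authors' deposited table of cKO 2 over control 1, 6 of the 10 were called lower, against 11.6% of all genes, and 0 were called higher (20.0% of all genes), with a median log2 fold change of −1.10. In the authors' deposited table of cKO 2 over control 6, 8 were called lower (13.4% of all genes) and Ctsk was called higher (33.7% of all genes), with a median of −1.71. In the authors' deposited table of cKO 5 over control 1, 9 members were higher but uncalled, with a median over the 10 of 0.57, and Ctsk was called lower with a log2 fold change of −2.60 (8.79% of all genes were called higher and 26.0% lower). In the authors' deposited table of cKO 5 over control 6, 0 members were called (9.23% of all genes higher, 11.4% lower), and the values ran from −0.23 for Ctsa to 0.28 for Ctsc.

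**Figure D2:**
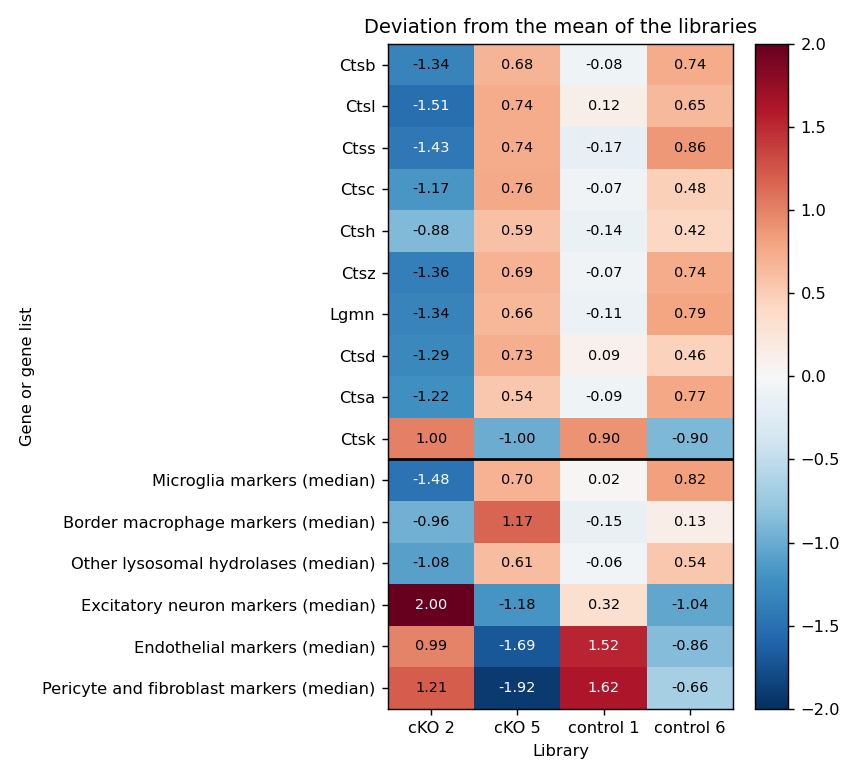
Deviation of each gene from its mean over the 4 libraries (log2(CPM + 0.5) after TMM scaling, colour and printed value), with the medians of 6 gene lists under the black line and the libraries as columns. The 9 genes other than Ctsk ran from −1.51 to −0.88 in cKO 2, with the microglial markers at −1.48. Ctsk had the signs of the excitatory neuron, the endothelial, and the pericyte and fibroblast markers in every library.

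The proportions between the abundant members varied far less than their level. Of the reads of all 10, Ctsb took 53.0% in cKO 2 (95% Wilson interval 52.7% to 53.2%) and 52.3% in cKO 5 (52.2% to 52.4%), against 52.1% in control 1 (52.0% to 52.3%) and 52.8% in control 6 (52.7% to 52.9%). These shares differed by 0.846 points at most, while the CPM of Ctsb differed 3.40-fold. Ctsz held between 2.98% and 3.02% in every library, a range of 0.0412 points. Lgmn ranged more widely, at 21.5% and 21.0% in cKO and 20.7% and 22.2% in control. The share of Ctsl moved most in points, at 9.38% in cKO 2 and 10.9% in cKO 5, against 11.9% in control 1 and 9.85% in control 6. For Ctsc, both cKO libraries (4.31% and 4.0%) were above both controls (3.78% and 3.17%). How often other genes separate on this scale was not computed. On TMM-scaled CPM the Ctsc groups overlapped, while 8.33% of all genes were higher without overlap in cKO. Ctsk was 0.0541% and 0.00228% in cKO and 0.0206% and 0.00247% in control.

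**Figure D3:**
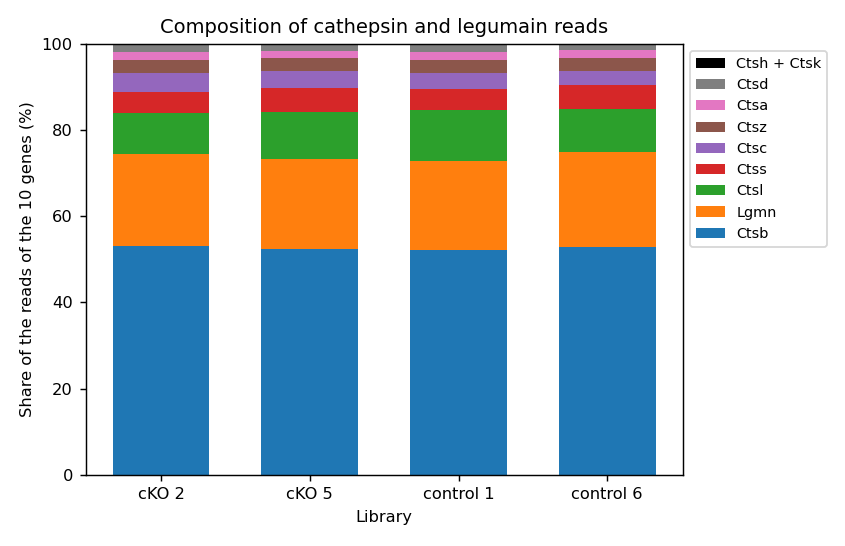
Share of the reads of the 10 genes taken by each gene (stacked bars, in percent of the whole bar, Ctsh and Ctsk summed) in each library. The bars are alike, with Ctsh and Ctsk together too thin to see, although the 10 genes took 1.04% of all reads in cKO 2 and 3.53% in control 6; Ctsb held between 52.1% and 53.0% in every library.

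Levels of different genes were compared per kilobase of mRNA. On this scale (CPM per kb), Ctsb and Lgmn were almost level, at 2837 ± 1287 and 2757 ± 1281 (mean ± SD over the 4 libraries). Ctsb was above Lgmn in 3 of 4 libraries, the exception being control 6, so this pair was not separated. Ctsl at 1377 ± 627, Ctss at 1018 ± 515, Ctsz at 533 ± 244 and Ctsc at 380 ± 157 CPM per kb followed in the same order in 4 of 4 libraries. Ctsd (183 ± 75.3) and Ctsa (172 ± 73.6) changed places in control 6. Ctsh at 32.3 ± 10.5 and Ctsk at 1.97 ± 1.67 CPM per kb were last in every library. The lengths were those of 1 transcript per gene. With the length of all annotated exons instead, Lgmn came before Ctsb, Ctsl came after Ctss and Ctsz, and Ctsd came before Ctsc.

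The members were also set against the markers of the labelled cell type. The median log2 level of the 10 genes stood above the median of the microglial markers by 0.728 in cKO 2 and 0.300 in cKO 5, against 0.267 in control 1 and 0.172 in control 6. Both cKO libraries were above both controls, by 0.295 on average (exact two-sided permutation p = 0.333, the smallest these libraries can give), and without cKO 2 the difference was 0.0811. The log2 ratio of summed counts was −0.192 and −0.425 in cKO and −0.492 and −0.537 in control. It differed by 0.206 on average (exact two-sided permutation p = 0.333). By the medians, Ctsc was the single member with both cKO values above both controls, at 0.99 and 0.50 in cKO and 0.44 and 0.21 in control. The median of the 10 is the midpoint of Ctsc and Ctsz. The other 9 overlapped, and for Ctsa, Ctsb and Ctsk cKO 5 was below both controls (for Ctsb 4.61 and 4.21 in cKO, 4.22 and 4.27 in control). On this scale, 8.89% of all genes were higher without overlap in cKO, and 0.351% lower. When fold changes were scaled on the microglial markers in place of all genes, all 10 members were positive, from 0.10 ± 0.66 for Ctsl to 1.58 ± 1.88 for Ctsk, and each was again smaller than its standard error (adjusted p from 0.764 to 0.929, edgeR). That scaling moved the median of all genes to 1.23, so the members' median of 0.22 was 1.01 below it, while it was 0.42 below with the usual scaling. The sign of the fold changes of the 9 members other than Ctsk thus depended on the scaling.

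**Figure D4:**
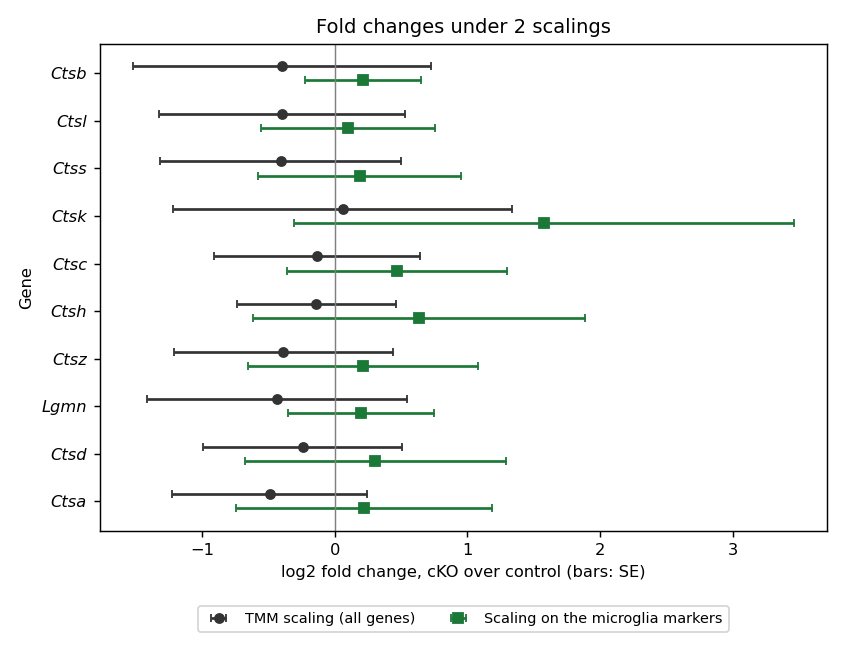
Log2 fold change of cKO over control for each gene (points, with bars of 1 SE) from edgeR with TMM scaling over all genes and with scaling on the microglial markers. All bars cross 0, and the 9 genes other than Ctsk changed from negative to positive with the second scaling.

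Genes of protease inhibitors, of the cystatin and serpin families, were measured in the same libraries. Cst3, which encodes the secreted inhibitor cystatin C, had 92.8 and 236 CPM in the cKO libraries, against 168 and 273 CPM in the controls (log2 fold change −0.45 ± 0.69). The log2 ratio of the summed reads of the 7 papain-family genes to those of Cst3 was 6.39 in cKO 2 and 6.78 in cKO 5, against 6.68 in control 1 and 6.59 in control 6. The control values lay between the cKO values, with a mean difference of −0.0568 (exact two-sided permutation p = 1). Cstb, the cytosolic cystatin B gene, had 48.5 and 112 CPM in cKO and 60.9 and 96.5 CPM in control. Cst7, the gene of the lysosomal inhibitor cystatin F, had 4.91 and 21.8 CPM in cKO and 12.1 and 20.2 CPM in control. Stfa1, Stfa2 and Stfa3 are near-identical copies whose reads may be split, and their log2 fold changes were 0.46, −0.09 and 0.36. Of 8 inhibitor genes tested, 4 had positive and 4 negative fold changes (median −0.04), and 0 passed the threshold (0% of all genes). Without cKO 2, 7 were positive and 1 negative (median 0.56), and with scaling on the microglial markers 8 were positive (median 0.82). Serpinb6a, a gene of the intracellular serpin family, had 19.7 and 26.3 CPM in cKO and 17.4 and 16.1 CPM in control. It was the single inhibitor gene with both cKO values above both controls on unscaled CPM. Its log2 fold change was 0.41 ± 0.43 (adjusted p = 0.9997, edgeR). After division by the TMM factors its groups overlapped, and on that scale 8.33% of all genes were higher without overlap in cKO. Serpinb1a, of the same family, had 5.26 and 4.82 CPM in cKO and 6.58 and 4.93 CPM in control. Whether the products of these serpin genes inhibit the members was not tested. Cst6 had no row in the tables used here.

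Other cathepsin genes were fewer and did not all share the members' arrangement. Of 15 listed, 5 were tested, with 2 positive and 3 negative fold changes and 0 past the threshold. Without cKO 2, 3 were positive and 2 negative, and with scaling on the microglial markers 5 were positive. Ctsf, a further papain-family gene, had 263 and 577 CPM in cKO and 430 and 673 CPM in control. Ctso had levels of 72.6 and 111 CPM in cKO and of 115 and 130 CPM in control, with both cKO values below both controls on unscaled CPM (log2 fold change −0.46 ± 0.44, unadjusted p = 0.354, adjusted p = 0.9997, edgeR). After division by the TMM factors the Ctso groups overlapped, and on that scale 7.64% of all genes were lower without overlap in cKO. Ctsw, known from cytotoxic lymphocytes, was arranged like Ctsk, at 22.1 and 2.75 CPM in cKO and 29.0 and 3.71 CPM in control. Ctse, an aspartic protease gene, had 0.982 and 6.37 CPM in cKO, no reads in control 1 and 0.870 CPM in control 6. Napsa, another aspartic protease gene, had 0.462 and 3.68 CPM in cKO and 1.77 and 1.28 CPM in control. Cts3, Cts6, Cts7, Cts8, Ctsg, Ctsj, Ctsll3, Ctsm, Ctsq and Ctsr had no row in the tables used here.

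The rest of the lysosomal system was examined for the same arrangement. Of 28 other lysosomal hydrolase genes, 3 had positive and 25 negative fold changes, with a median of −0.27 against 0.03 over all genes. Without cKO 2 the counts turned over to 25 positive and 3 negative (median 0.29), and with scaling on the microglial markers 28 were positive (median 0.40). Hexa, a lysosomal glycosidase gene, had 446 and 1431 CPM in cKO and 959 and 1359 CPM in control, and Gusb, the beta-glucuronidase gene, had 413 and 1361 CPM in cKO and 902 and 1401 CPM in control. Lysosomal membrane genes were negative in 11 of 13 (median −0.23), proton pump genes in 15 of 17 (median −0.13) and sorting genes in 7 of 10 (median −0.15). Without cKO 2, positive values were found in 11 of 13 membrane genes (median 0.34), 15 of 17 proton pump genes (median 0.22) and 9 of 10 sorting genes (median 0.22). With scaling on the microglial markers, 13 of 13, 16 of 17 and 10 of 10 of these lists were positive. Lamp1, the gene of an abundant lysosomal membrane glycoprotein, had 775 and 3668 CPM in cKO and 1146 and 2986 CPM in control. M6pr, the cation-dependent mannose 6-phosphate receptor gene, had 279 and 523 CPM in cKO and 451 and 553 CPM in control, and the retromer gene Vps35 varied little, at 401 and 490 CPM in cKO and 442 and 458 CPM in control. Among genes of proteins that endolysosomal proteases process, 5 of 7 were negative (median −0.23), while 7 of 7 were positive without cKO 2 (median 0.36) and with scaling on the microglial markers (median 0.28). Of these, Psap, the saposin precursor gene, had 2734 and 6636 CPM in cKO and 5048 and 6022 CPM in control. In all these lists 0 genes passed the threshold (0% of all genes, edgeR), and these lists overlap in part with the microglial markers.

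Among 11182 other genes with a mean of at least 5 CPM, the 8 whose profile over the 4 libraries lay nearest the members' median profile were Dyrk4, Tlr7, Pycard, Gusb, Tmem144, Sp110, Agps and Cd9, with Euclidean distances of 0.033 to 0.063 on the log2 scale. The members' own distances from that profile were 0.06 for Ctsb and Ctsz, 0.11 for Lgmn, at most 0.53 (Ctsh) for the others of the 9, and 3.42 for Ctsk. Tlr7, which encodes an endosomal RNA receptor that cathepsins and legumain cleave, had 66.8 and 210 CPM in cKO and 140 and 209 CPM in control. With 4 libraries, such a likeness is a description.

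The promoters of the members were searched for 3 motifs where a sequence was at hand. CACGTG is the core of the site bound by the MiT/TFE factors, which drive many lysosomal genes. TGAGTCA is the core of the site bound by AP-1 and, within a longer element, by BACH1 with small MAF proteins, and GAGGAAGT is a site of the myeloid factor PU.1. RefSeq promoter windows (GRCm38.p6) were matched for 8 of the 10 genes, in 10 windows, and not for Ctsb and Ctsh. Within 250 bases before the start, on either strand, CACGTG occurred in 4 of the 8 genes (Ctsa, Ctsd, Ctsl and Lgmn; 4 of 10 windows), while it was in 6.02% of all 32851 promoter windows. GAGGAAGT occurred in 1 (Ctsc; 2.44% of all windows) and TGAGTCA in 0 (4.46% of all windows). The stretches below show the motif in capitals, with up to 27 bases on each side within the window, 5′ to 3′ on the strand of the gene. The Ctsa and Lgmn stretches belong to the more downstream of 2 annotated starts, and Ctsd had a further CACGTG 245 bases before its RefSeq start. The printed Ctsd, Lgmn, Ctsl and Ctsa stretches lie inside the gene spans given above, since the RefSeq starts used lie inside those spans. The Ctsc stretch lies before its gene span. The positions are chr7:142387893-142387952 (minus) for Ctsd, chr12:102439109-102439168 (minus) for Lgmn, chr13:64370724-64370770 (minus) for Ctsl, chr2:164833734-164833772 (plus) for Ctsa and chr7:88277907-88277968 (plus) for Ctsc.
Ctsd: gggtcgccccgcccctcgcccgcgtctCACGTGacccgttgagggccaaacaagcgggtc
Lgmn: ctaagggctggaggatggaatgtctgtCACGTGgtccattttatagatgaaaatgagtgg
Ctsl: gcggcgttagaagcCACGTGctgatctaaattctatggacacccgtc
Ctsa: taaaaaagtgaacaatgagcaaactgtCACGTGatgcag
Ctsc: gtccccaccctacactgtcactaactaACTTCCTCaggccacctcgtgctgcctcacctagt

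The motif began 98 bases before the RefSeq start used in Ctsd, 49 in Lgmn, 236 in Ctsl and 12 in Ctsa. A match is a description of letters and not of binding. The 4 genes with CACGTG were lowest in cKO 2, as were Ctsc, Ctss and Ctsz without CACGTG. Ctsk, also without CACGTG, was highest there. The 4 MiT/TFE factor genes had 1 positive and 3 negative fold changes (median −0.36) and 0 past the threshold (0% of all genes, edgeR). All 4 were positive without cKO 2 (median 0.23) and with scaling on the microglial markers (median 0.35). Tfe3 had 153 and 298 CPM in cKO and 258 and 321 CPM in control. Tfeb had 6.47 and 21.0 CPM in cKO and 15.7 and 26.0 CPM in control, Mitf had 12.2 and 34.3 CPM in cKO and 29.0 and 29.9 CPM in control, and Tfec had 7.97 and 44.5 CPM in cKO and 15.7 and 33.5 CPM in control. Each was lowest in cKO 2.

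Overlapping genes touch some of these counts, and no source used here gives the strand setting of the counting. The exons of Ctsb share 774 bases with Fdft1 on the opposite strand, which had 153 and 22.6 CPM in cKO and 56.8 and 23.2 CPM in control. Ctsa shares 495 exonic bases with Pltp (84.3 and 15.1 CPM in cKO, 120 and 20.1 CPM in control) and 324 with Neurl2. Ctsl shares 1742 with the antisense gene Gm47123 and 395 on its own strand with the processed pseudogene Gm49230. Ctsd shares 808 on its own strand with Gm49369, and Ctsz shares 10 with Nelfcd on the opposite strand. Ctsa, Ctsb, Ctsd, Ctsl and, by those few bases, Ctsz are therefore given with that uncertainty.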

How the data were processed

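Messenger RNA of microglia was sequenced in 2 cKO and 2 control libraries, grouped and numbered by their titles. Per the submitters' processing notes, Bowtie2 2.2.3, TopHat2 2.0.12 and HTSeq 0.6.0 were used with the mm9 build; the sources used here name neither roles nor settings. The gene positions nevertheless matched the GRCm38 annotation (GENCODE M21; 90.3% identical among 21922 genes). The 4 deposited tables hold raw counts per Ensembl gene of 1 cKO and 1 control library each. The deposited CPM values are counts per 1000000 reads of the library total, in which the authors set 0 counts to a fraction of a read. From these come the deposited ratio of cKO over control and its log2 value, as fold changes. The deposited p-values come from a test that no source used here names.

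Counts were joined by gene ID (18723 genes with a count in every library), and library totals were recovered from count and CPM. The genotypes were compared with edgeR 4.0.16 (R 4.3.3), quasi-likelihood test, two-sided, with TMM factors of 1.15 and 0.919 for cKO 2 and cKO 5 and 1.03 and 0.917 for control 1 and control 6, filterByExpr (minimum count 10) and Benjamini-Hochberg adjustment at 0.05 over 15951 genes. The SE is the fold change divided by the square root of F. Log2 levels used a pseudocount of 0.5 CPM. Single ratios used an exact permutation test (scipy 1.17.1). Lengths per gene were of the best-supported principal GENCODE transcript. DESeq2 1.42.0, limma-voom (limma 3.58.1), other scalings, no filter and leaving out each library were alternatives. Named genes were the members, Bach1, all tested genes of the cathepsin, inhibitor and MiT/TFE lists, up to 4 (pathway lists) or 3 (marker lists) genes of highest mean CPM per list, and the 8 genes of nearest profile; Col1a1, Dcn and the genes overlapping members were named after their values were seen. Members, lists and alternatives were chosen with earlier results of these data known, and the promoter motifs after the values were seen.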

Additional observations from a re-analysis of the deposited data

How the results depend on the processing

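No gene and no member was called under any alternative. With scaling on the microglial markers, the members' median log2 fold change was 0.22 in place of −0.39, and the members had 0.22 (Ctsa), 0.22 (Ctsb), 0.47 (Ctsc), 0.31 (Ctsd), 0.63 (Ctsh), 0.10 (Ctsl), 0.19 (Ctss), 0.21 (Ctsz) and 0.20 (Lgmn); by construction these values are relative to the markers. With limma-voom, Ctsk had −0.04 in place of 0.06, and the cause was not tested. The mean of log2 ratios of the papain-family genes to Cst3 differed by 0.109 between genotypes, against −0.0568 for the ratio of sums, since each gene weighs the same in the mean. The other alternatives with all libraries (no filter, DESeq2 size factors, library totals alone, DESeq2 and edgeR's exact test) kept every member's sign.

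Leaving out each library in turn gave medians from −1.69 (without cKO 5) to 0.33 (without cKO 2). The ranges were −1.63 to 0.16 for Ctsa, −1.75 to 0.31 for Ctsb, −1.41 to 0.56 for Ctsc, −1.59 to 0.47 for Ctsd, −1.07 to 0.45 for Ctsh, −1.67 to 1.55 for Ctsk, −1.93 to 0.36 for Ctsl, −1.88 to 0.33 for Ctss, −1.77 to 0.33 for Ctsz and −1.77 to 0.27 for Lgmn. The difference in the summed share of reads ran from −1.87 to 0.501 points, the log2 ratio to Cst3 from −0.252 to 0.138, and the log2 ratio to the microglial markers from 0.0811 to 0.509. No paired analysis was possible because the genotypes share no replicate number. Depth limited only Ctsk, with 15 reads in cKO 5 and in control 6.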
